A study of Arabidopsis thaliana with 12 samples.

Results

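The genes described here encode proteins of the large, 60S subunit of the cytosolic ribosome in Arabidopsis thaliana. They were taken as 60 listed AGI loci of large-subunit proteins, a list drawn up with earlier results of these data known, and each locus was measured by the probe set assigned to it and to no other gene. Of the 60 loci, 39 had such a probe set, 1 each, and all 39 passed the filter on low signal (a mean of at least 32 over the 12 arrays). The remaining 21 loci were not analysed here as single genes. The loci belong to 28 protein families, named here by the usual ribosomal protein nomenclature rather than by the files, and 22 of the families had at least 1 measured member. The families L3, L5, L10, L11, L23a and L24 had none.

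RNA from rosette leaves was hybridised to 12 Affymetrix ATH1 arrays, 3 for each of 4 groups, with pools of 40 plants according to the series description. The groups were plants of the Col-0 ecotype carrying an RNAi construct against SPH1 at growth stage 1.14, Col-0 without a construct at stage 1.14, the same RNAi material at stage 1.05, and Col-0 at stage 1.05. SPH1 encodes a member of a family of small secreted plant proteins, and the growth stages count rosette leaves. The sources used here give neither the promoter of the construct nor the number of independent lines. SPH1 itself has no listed probe set, so its level was not checked. The labels do not say whether the 3 arrays of a group came from separately grown pools, so the p-values may rest on technical spread between arrays alone.

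Ribosomes are built from ribosomal RNA and many different proteins, most of them encoded in Arabidopsis by small families of paralogous genes. The large subunit carries the peptidyl transferase centre, the exit tunnel for the new protein and the stalks that contact elongation factors and transfer RNA. Genes for ribosomal proteins are known to be most active in growing and dividing tissue, and to be lower in leaves that have finished growing.

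The deposited values are linear probe-set signals, scaled to a common trimmed mean of 100.01 on each array. A change is given as a difference on the scale of log2(signal + 16), which understates changes of dim probe sets, and "rose" or "fell" is used where the Benjamini-Hochberg adjusted p of limma over 13263 tested probe sets was under 0.05. Signals of different probe sets are not compared with each other. Within SPH1 RNAi at stage 1.14, replicate 1 stood apart, with correlations of 0.894 and 0.904 to replicates 2 and 3 over all tested probe sets, against 0.969 between those 2. Replicates 2 and 3 of that group are marked as repeats in their titles, and replicate 3 lacks the RNAi tag and was grouped by its source name. Average array background spanned 75.5 to 136.5 in SPH1 RNAi and 71.3 to 100.9 in Col-0 at stage 1.14, but 68.5 to 79.5 in SPH1 RNAi and 86.4 to 118.9 in Col-0 at stage 1.05, where the genotypes did not overlap. The 3' to 5' signal ratio of the actin control, a measure of RNA integrity, spanned 0.90 to 1.56 in SPH1 RNAi and 0.92 to 1.07 in Col-0 at stage 1.14, and 1.21 to 2.75 in SPH1 RNAi and 1.55 to 2.32 in Col-0 at stage 1.05, on the log2 scale. The part of background and of this ratio in the stage and genotype differences below was not tested.

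The 60S genes formed 3 tiers across the 4 groups. The median over the 39 members of each group's mean signal was 1013 in SPH1 RNAi at stage 1.14, 555.5 in Col-0 at stage 1.14, 1317 in SPH1 RNAi at stage 1.05 and 1530 in Col-0 at stage 1.05. The members' median deviation from their own mean over the 12 arrays was 0.13, -0.19 and -0.18 in the 3 SPH1 RNAi arrays at stage 1.14, and -0.70, -1.01 and -0.64 in the 3 Col-0 arrays at that stage, on the log2 scale. At stage 1.05 it was 0.50, 0.40 and 0.35 in SPH1 RNAi and 0.42, 0.55 and 0.44 in Col-0. The Col-0 arrays at stage 1.14 were thus lowest, the SPH1 RNAi arrays at stage 1.14 lay between, and the 2 genotypes overlapped at stage 1.05. For 23 of the 39 members this order held without overlap, with every Col-0 array at stage 1.14 below every SPH1 RNAi array at stage 1.14, and those below every array of stage 1.05. The share of all tested probe sets in this order was not computed. In whole leaves, fewer cells of a type that makes much ribosomal protein mRNA and less of it per cell cannot be told apart.

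**Figure D1:**
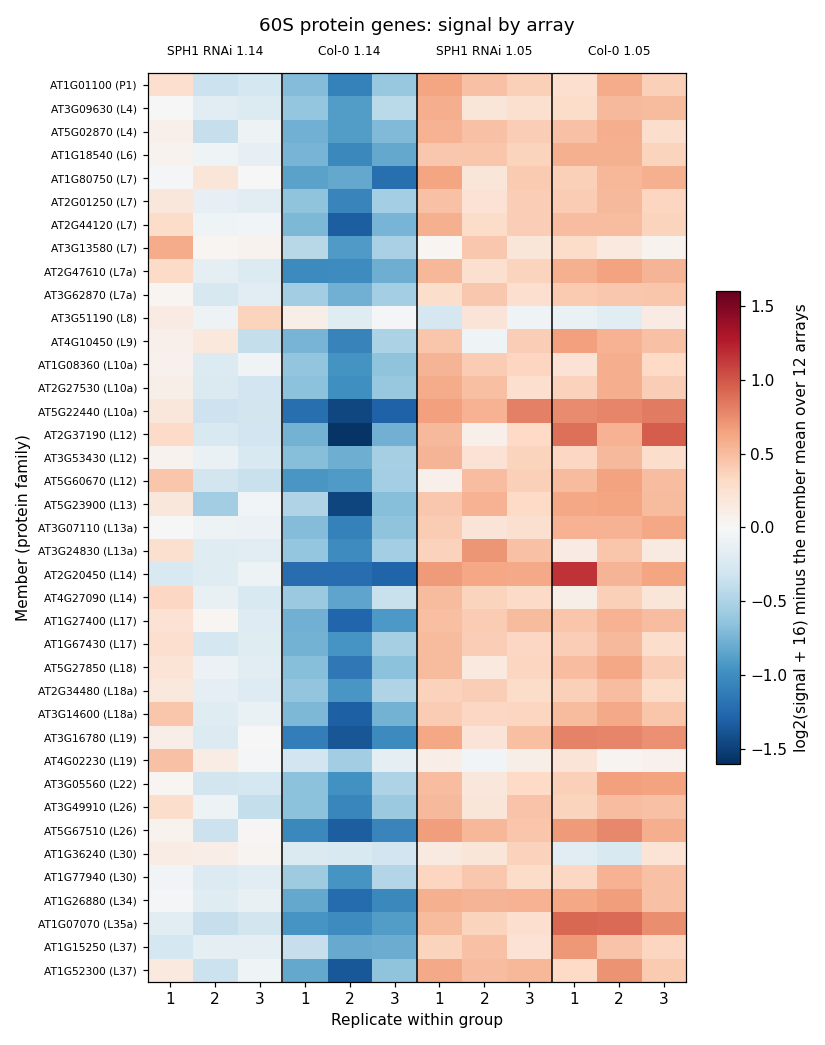
Deviation of each of the 39 measured 60S members (rows, locus and protein family) from its own mean over the 12 arrays (columns, by group), on the scale of log2(signal + 16). The 3 Col-0 arrays at stage 1.14 have median deviations of -0.70, -1.01 and -0.64, below the SPH1 RNAi arrays at stage 1.14 with 0.13, -0.19 and -0.18, while all 6 arrays of stage 1.05 have medians of 0.35 or more.

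At stage 1.14, 29 of the 39 members rose in SPH1 RNAi relative to Col-0 and none fell, at a background of 4.7% of all tested probe sets called higher and 2.06% called lower. The members' median change was 0.70, a fold of 1.63, against a median of 0.04 over all tested probe sets, and all 39 members had a positive change, spanning 0.18 to 1.17. In 37 members every SPH1 RNAi array lay above every Col-0 array, at a background of 17.9% of tested probe sets. The limma adjusted p of the 29 lay between 0.0027 and 0.0499. An unadjusted p under 0.05 was found for 38 members, a rule whose share over all tested probe sets was not computed. Fewer members passed in single-array omissions: 13 without Col-0 replicate 2, 17 without Col-0 replicate 1, 17 without SPH1 RNAi replicate 1, 18 without SPH1 RNAi replicate 3 and 19 without Col-0 replicate 3, all of stage 1.14. The median change stayed between 0.58 and 0.80 over all 12 such omissions. It was 0.555 with array quality weights, and 0.94 without both SPH1 RNAi arrays marked as repeats, which leaves 1 array in that group. With only the 6 arrays of stage 1.14 in the fit 5 members passed, and without a filter on low signal 18 did. Calls in either direction over all tested probe sets moved too. They numbered 896 in the full fit, and 447, 401, 690, 411 and 376 in the omissions named, in that order. With the 6 arrays there were 154, and without a filter 665.

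Of the stalk proteins, those of the L10a family form the mobile L1 stalk beside the exit site of transfer RNA, and the L10a gene AT5G22440 had the largest change of all members. It read 514.9, 355.7 and 364.9 in SPH1 RNAi at stage 1.14, against 185.8, 155 and 175.2 in Col-0 at that stage, and the lowest SPH1 RNAi array lay well above the highest Col-0 array. The change was 1.17 ± 0.16 (SE, limma adjusted p = 0.0027) and passed in every single-array omission. The other measured L10a genes also rose. AT1G08360 read 978.2, 800.2 and 899.3 in SPH1 RNAi, against 598.4, 474.5 and 593.6 in Col-0, a change of 0.67 ± 0.15 (SE, limma adjusted p = 0.0219). AT2G27530, known as PIGGYBACK1 (PGY1) for the effect of its mutants on leaf polarity, read 1232.6, 983.2 and 926.9 in SPH1 RNAi, against 722.8, 576.5 and 750.6 in Col-0, a change of 0.60 ± 0.16 (SE, limma adjusted p = 0.0427). Neither of these 2 genes overlapped between the genotypes.

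L12 proteins sit at the base of the other stalk, whose tip carries the acidic P proteins and recruits elongation factors. The L12 gene AT2G37190 read 1292.3, 876.5 and 844.1 in SPH1 RNAi at stage 1.14, against 610.2, 341.1 and 607.6 in Col-0, a change of 0.95 ± 0.24 (SE, limma adjusted p = 0.0347). Replicate 1 was the highest of the SPH1 RNAi arrays and replicate 2 the lowest of the Col-0 arrays, and the groups did not overlap. Its paralogue AT3G53430 rose by 0.57 (limma adjusted p = 0.0329), while AT5G60670 had a change of 0.72 that did not pass (limma adjusted p = 0.0602). The acidic stalk protein gene of the P1 family, AT1G01100, read 2000.9, 1310.1 and 1372.9 in SPH1 RNAi, against 1019.1, 777.9 and 1091.2 in Col-0, and its change of 0.68 lay at the edge of the threshold (limma adjusted p = 0.0499).

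L4 and L17 line the exit tunnel and L26 lies near its mouth in ribosome structures of other eukaryotes. Of the 6 measured genes of these families, 5 rose. The L26 gene AT5G67510 read 615.2, 463 and 596.9 in SPH1 RNAi at stage 1.14, against 279.9, 226.5 and 275.7 in Col-0, a change of 1.05 ± 0.15 (SE, limma adjusted p = 0.00322). The L17 gene AT1G27400 read 797, 691.5 and 584.3 in SPH1 RNAi, against 391.3, 271.8 and 351.5 in Col-0, a change of 1.00 ± 0.16 (SE, limma adjusted p = 0.00524). In both genes the 2 groups were separated by a wide gap. The paralogues AT3G49910 (L26) and AT1G67430 (L17) rose by 0.70 and 0.67. Of the L4 genes, AT5G02870 rose by 0.67 (limma adjusted p = 0.0197), and AT3G09630 had a change of 0.52 that did not pass (limma adjusted p = 0.0687).

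L19 takes part in a bridge to the small subunit. The L19 gene AT3G16780 read 302.5, 238.2 and 277.7 in SPH1 RNAi at stage 1.14, against 120.6, 98 and 129.5 in Col-0, a change of 1.13 ± 0.15 (SE, limma adjusted p = 0.00271). Its paralogue AT4G02230 read 800.9, 624.4 and 561.8 in SPH1 RNAi, against 464.6, 385.5 and 514.6 in Col-0, and its change was 0.52 ± 0.16 (SE, limma adjusted p = 0.0696), which did not pass. Both genes were higher in every SPH1 RNAi array than in every Col-0 array, by a narrower gap in AT4G02230. In the L14 family, too, 1 gene rose and 1 did not pass. AT2G20450 read 241.5, 251.4 and 273.7 in SPH1 RNAi, against 115.5, 115.4 and 110.3 in Col-0, and rose by 1.06 ± 0.16 (SE, limma adjusted p = 0.00372). AT4G27090 read 2160.2, 1573.2 and 1439 in SPH1 RNAi, against 1132.9, 943.8 and 1333.4 in Col-0, and its change was 0.59 ± 0.18 (SE, limma adjusted p = 0.0678), which did not pass. The 3 Col-0 arrays of AT2G20450 were nearly equal, and all SPH1 RNAi arrays lay far above them.

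The L7 family was measured with 4 genes, and all 4 rose. AT1G80750 read 155.8, 183 and 158.2 in SPH1 RNAi at stage 1.14, against 79.9, 82.8 and 59.5 in Col-0, a change of 1.02 ± 0.15 (SE, limma adjusted p = 0.00387). AT2G44120 read 1342.9, 1037.6 and 1054.8 in SPH1 RNAi, against 653.5, 426.2 and 642.2 in Col-0, a change of 0.99 ± 0.18 (SE, limma adjusted p = 0.00865). The groups did not overlap in either gene. AT3G13580 and AT2G01250 rose by 0.85 and 0.70. The L18a gene AT3G14600 read 892.5, 570.4 and 607.1 in SPH1 RNAi, against 391.3, 254.9 and 382.3 in Col-0, a change of 0.97 ± 0.19 (SE, limma adjusted p = 0.0145). SPH1 RNAi replicate 1 was again the highest array, and all 3 lay above Col-0. These 2 L7 genes, AT3G14600 and the 5 genes named above with the largest changes (AT5G22440, AT3G16780, AT2G20450, AT5G67510 and AT1G27400) are among 13 members that passed with any single array left out.

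In 13 families every measured member rose: P1, L6, L7, L7a, L9, L10a, L13a, L17, L18, L18a, L26, L34 and L35a. Over the 12 single-array omissions this held for 3 to 12 of the 13, and in each omission for L6, L34 and L35a, which alone were left without Col-0 replicate 2 of stage 1.14. Of the 13, P1, L6, L9, L18, L34 and L35a had only 1 measured member each, for which the criterion is easier to meet. The P1 gene AT1G01100 and PGY1 each lost the call in 11 of the 12 single-array omissions. In 5 families part of the members rose, 1 of 2 in L4, L14, L19 and L37 and 2 of 3 in L12. No measured member passed in 4 families, L8, L13 and L22 with 1 measured member each and L30 with 2. The L13 gene AT5G23900 had a change of 0.73 and the L22 gene AT3G05560 one of 0.52, with limma adjusted p of 0.0883 and 0.0758. AT5G23900 overlapped between the genotypes, since it read 688, 405.6 and 586.7 in SPH1 RNAi, against 428.8, 209 and 372.2 in Col-0.

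**Figure D2:**
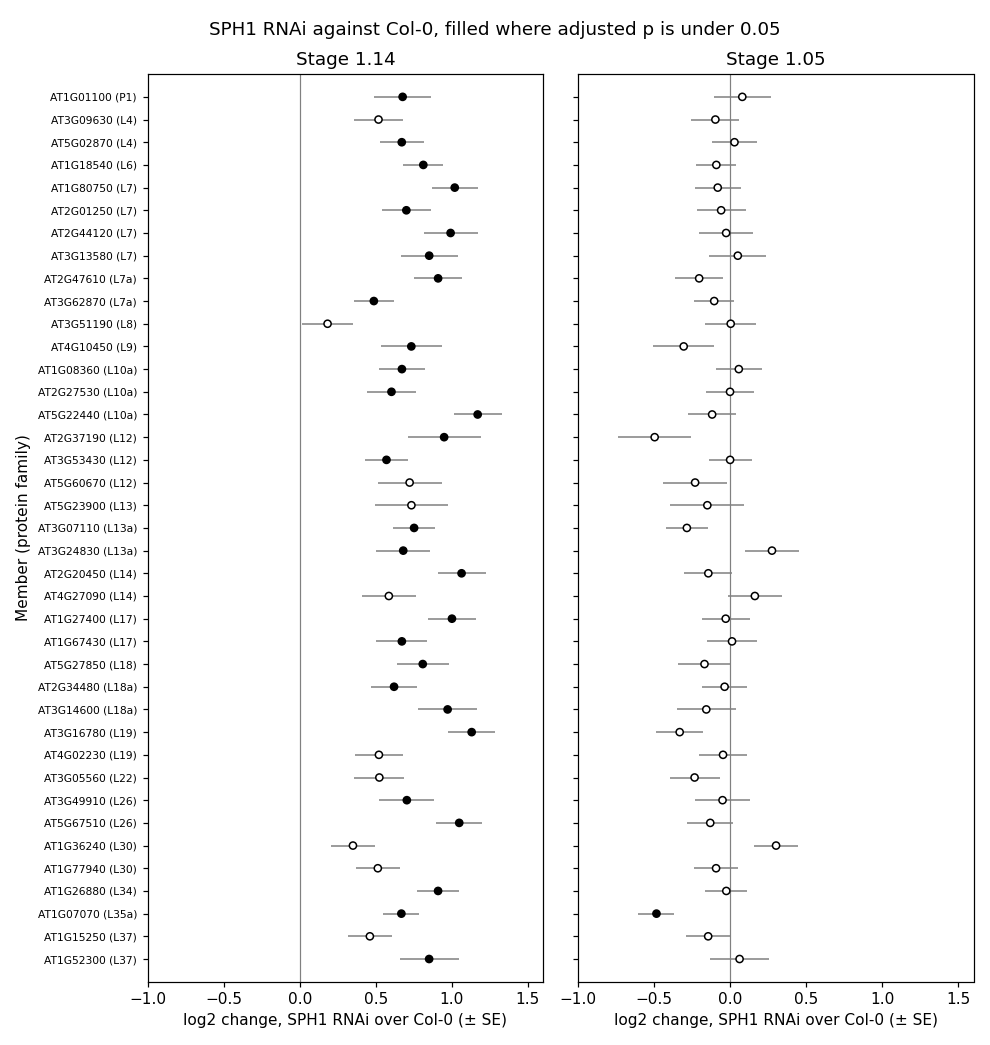
Change of each measured 60S member in SPH1 RNAi relative to Col-0 at stage 1.14 (left) and stage 1.05 (right), as log2 difference ± SE from the limma fit, filled where the adjusted p was under 0.05. At stage 1.14 all 39 members lie right of 0 and 29 are filled; at stage 1.05 they scatter around a median of -0.08 and only AT1G07070 is filled.

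At stage 1.05 none of the 39 members rose in SPH1 RNAi relative to Col-0 and 1 fell in the limma test, at a background of 4.57% of tested probe sets called higher and 0.762% called lower. The median change was -0.08, against 0.04 over all tested probe sets, with 29 members negative and 10 positive. Only the member that fell had an unadjusted p under 0.05, and the share over all tested probe sets was not computed. The median was 0.02 after quantile normalization of the arrays and -0.19 after scaling to a common median, so its sign depended on the scaling. In 8 members every SPH1 RNAi array lay below every Col-0 array, at a background of 11.7%. The gene that fell was the L35a gene AT1G07070, which read 177.7, 158.9 and 148.9 in SPH1 RNAi at stage 1.05, against 244, 239.9 and 214.1 in Col-0. The groups did not overlap, and the change was -0.48 ± 0.12 (SE, limma adjusted p = 0.0324). The call was lost in 7 of the 12 single-array omissions, namely each Col-0 array of stage 1.05, SPH1 RNAi replicates 2 and 3 of stage 1.05, and Col-0 replicates 1 and 3 of stage 1.14, where the limma adjusted p lay between 0.0536 and 0.123. At stage 1.14 the same gene rose, with 104.9, 89.7 and 95.9 in SPH1 RNAi, against 54.9, 52 and 57.9 in Col-0, a change of 0.67 ± 0.12 (SE, limma adjusted p = 0.00829). The L12 gene AT2G37190 had the most negative change at stage 1.05, with 1496, 1106.8 and 1310.6 in SPH1 RNAi, against 1932.4, 1546.1 and 2062.5 in Col-0. Its change of -0.50 ± 0.24 (SE, limma adjusted p = 0.274) did not pass.

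In Col-0, 37 of the 39 members fell at stage 1.14 relative to stage 1.05 and none rose, at a background of 21% of tested probe sets called lower and 23.7% called higher. The median change was -1.27, a fold of 2.41, against 0.02 over all tested probe sets. In 37 members every array of stage 1.14 lay below every array of stage 1.05, at a background of 28%. The count was 36 or 37 in every single-array omission. AT5G22440 (L10a) again had the largest change, with 185.8, 155 and 175.2 in Col-0 at stage 1.14, against 772.4, 789.7 and 817.7 in Col-0 at stage 1.05, a difference of -2.11 ± 0.16 (SE, limma adjusted p = 2.63e-06). AT2G20450 (L14) read 115.5, 115.4 and 110.3 in Col-0 at stage 1.14, against 667.6, 431.5 and 457.8 in Col-0 at stage 1.05, a difference of -2.02 ± 0.16 (SE, limma adjusted p = 3.28e-06). AT3G16780 (L19) read 120.6, 98 and 129.5 in Col-0 at stage 1.14, against 496.6, 488.6 and 472.2 in Col-0 at stage 1.05, a difference of -1.93 ± 0.15 (SE, limma adjusted p = 3.4e-06). In each of these genes the highest array of stage 1.14 lay far below the lowest array of stage 1.05.

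AT2G37190 (L12), AT5G67510 (L26), AT1G07070 (L35a), AT1G26880 (L34) and AT2G47610 (L7a) complete the 8 largest decreases, at -1.83, -1.81, -1.81, -1.61 and -1.52. AT1G26880 read 463.3, 342.7 and 395.3 in Col-0 at stage 1.14, against 1272.9, 1319.4 and 1151.5 in Col-0 at stage 1.05. AT2G47610 read 493.3, 496.6 and 587.3 in Col-0 at stage 1.14, against 1514.8, 1599.9 and 1488.1 in Col-0 at stage 1.05. Neither gene came near overlap. AT4G02230 (L19) had the smallest decrease that passed, with 464.6, 385.5 and 514.6 in Col-0 at stage 1.14, against 664.9, 593.4 and 603.6 in Col-0 at stage 1.05, a difference of -0.44 ± 0.16 (SE, limma adjusted p = 0.0388). It was the exception among the 37, since the other 36 passed with any single array left out.

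The 2 members that did not pass in Col-0 were also those closest to the filter on low signal. The L8 gene AT3G51190, of a family whose proteins lie near the peptidyl transferase centre, read 42.1, 33.9 and 52.1 in SPH1 RNAi at stage 1.14 and 40.5, 30.2 and 35.7 in Col-0 at that stage. At stage 1.05 it read 28, 44.9 and 34.8 in SPH1 RNAi and 33.1, 31.3 and 42.2 in Col-0. All 4 groups overlapped, and it passed in none of the 6 comparisons. The L30 gene AT1G36240 read 38.2, 37.8 and 35.8 in SPH1 RNAi and 26.6, 26.4 and 24.4 in Col-0 at stage 1.14, and 39.4, 41.5 and 48.6 in SPH1 RNAi and 28.3, 26.4 and 42.5 in Col-0 at stage 1.05. It was higher in every SPH1 RNAi array than in every Col-0 array at stage 1.14, yet it passed in none of the 6 comparisons. Their mean signals over the 12 arrays, 37.4 for AT3G51190 and 34.7 for AT1G36240, lay just above the minimum of 32.

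In SPH1 RNAi, 11 of the 39 members fell at stage 1.14 relative to stage 1.05 and none rose, at a background of 4.46% of tested probe sets called lower and 5.78% called higher. The median change was -0.46, a fold of 1.38, against 0.02 over all tested probe sets, with 36 members negative and 3 positive. An unadjusted limma p under 0.05 was found for 29 members, and its share over all tested probe sets was not computed. The median was -0.21 after quantile normalization and -0.27 without both repeated hybridisations. In 26 members every array of stage 1.14 lay below every array of stage 1.05, at a background of 13.8%. The count of 11 rested on single arrays more than the counts above: 21 members passed without SPH1 RNAi replicate 1 of stage 1.14 and 4 without replicate 2 of that group. Without replicates 1 or 2 of SPH1 RNAi at stage 1.05 it was 4, and without replicate 3 of that group or of SPH1 RNAi at stage 1.14 it was 6. It was 7 without Col-0 replicate 2 or 3 of stage 1.05 or Col-0 replicate 1 of stage 1.14, and 6 without Col-0 replicate 3 of stage 1.14. It was 1 with only the 6 SPH1 RNAi arrays in the fit, 5 after quantile normalization or without a filter, and 25 with array quality weights. Over all tested probe sets 1358 were called in either direction in the full fit, and 669 to 1501 in single-array omissions. They numbered 462 with the 6 arrays, 1349 after quantile normalization, 943 without a filter and 1788 with weights.

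AT5G22440 (L10a) read 514.9, 355.7 and 364.9 in SPH1 RNAi at stage 1.14, against 722.8, 668.4 and 802.3 in SPH1 RNAi at stage 1.05, a difference of -0.82 ± 0.16 (SE, limma adjusted p = 0.00894). AT2G20450 (L14) read 241.5, 251.4 and 273.7 in SPH1 RNAi at stage 1.14, against 472.9, 454.9 and 450.9 in SPH1 RNAi at stage 1.05, a difference of -0.81 ± 0.16 (SE, limma adjusted p = 0.00927). AT1G26880 (L34) read 806.6, 721.7 and 756.5 in SPH1 RNAi at stage 1.14, against 1231.6, 1213.1 and 1226.4 in SPH1 RNAi at stage 1.05, a difference of -0.67 ± 0.14 (SE, limma adjusted p = 0.0114). The stages did not overlap in these 3 genes, and with AT1G07070 (-0.66, limma adjusted p = 0.00642) they passed with any single array left out. AT5G67510 (L26), AT2G27530 (L10a), AT5G02870 (L4) and AT1G15250 (L37) follow, with changes of -0.63, -0.60, -0.59 and -0.55. AT5G02870 read 1851.8, 1353.7 and 1661.1 in SPH1 RNAi at stage 1.14, against 2578.9, 2426.3 and 2298.1 in SPH1 RNAi at stage 1.05. AT1G15250 read 67.3, 75.1 and 74.9 in SPH1 RNAi at stage 1.14, against 113.3, 123.9 and 102.6 in SPH1 RNAi at stage 1.05. These last 4 calls ended in 3 (AT5G67510) to 8 (AT1G15250) of the 12 single-array omissions. The L7 gene AT3G13580 differed little between the stages in SPH1 RNAi, with 454.1, 302.3 and 307.3 at stage 1.14, against 300.9, 403.2 and 340.3 at stage 1.05, a difference of 0.01 ± 0.19 (SE, limma adjusted p = 0.98). In Col-0 it fell, with 212.7, 149.8 and 201.3 at stage 1.14, against 363.6, 331.3 and 307.5 at stage 1.05, a difference of -0.79 ± 0.19 (SE, limma adjusted p = 0.00462).

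**Figure D3:**
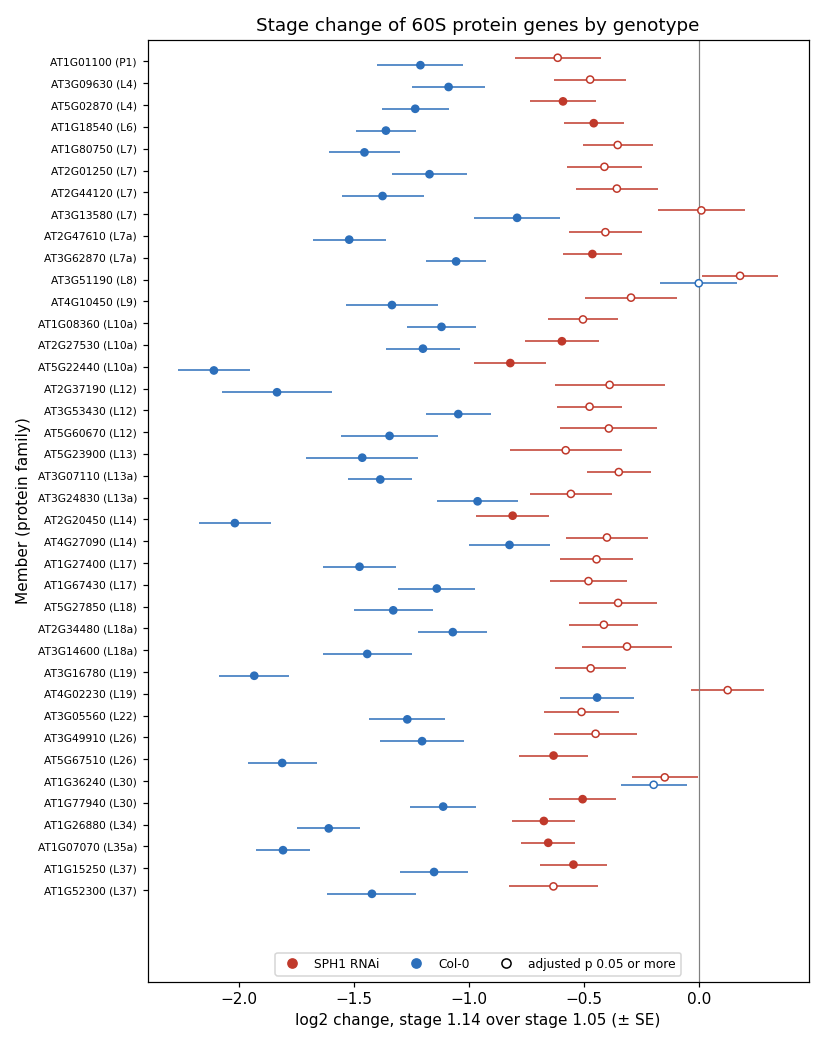
Change of each measured 60S member at stage 1.14 relative to stage 1.05, as log2 difference ± SE from the limma fit, in SPH1 RNAi (red) and Col-0 (blue), filled where the adjusted p was under 0.05. The Col-0 changes centre on -1.27 with 37 filled and the SPH1 RNAi changes on -0.46 with 11 filled, and the SPH1 RNAi change lies to the right of the Col-0 change for all 39 members.

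The difference between the 2 stage changes was tested as the interaction of genotype and stage. It was positive for all 39 members, with a median of 0.79 against -0.02 over all tested probe sets, and it passed for 15, at a background of 1.48% called higher. In 38 of 39 members the size of the stage change was smaller in SPH1 RNAi than in Col-0, AT3G51190 being the exception. The share of all tested probe sets with a smaller change was not computed. Their stage changes had quartiles of -0.39 and 0.44 in Col-0, and -0.23 and 0.25 in SPH1 RNAi. Smaller stage changes in SPH1 RNAi were thus not particular to the 60S genes. The interaction, the Col-0 stage change and the stage 1.14 genotype difference all use the same Col-0 arrays of stage 1.14. AT3G16780 (L19) had the largest interaction, 1.46 ± 0.22 (SE, limma adjusted p = 0.00628), from stage changes of -0.47 in SPH1 RNAi and -1.93 in Col-0. AT2G37190 (L12) followed with 1.45 ± 0.34 (SE, limma adjusted p = 0.0392), from -0.39 in SPH1 RNAi and -1.83 in Col-0. Its call ended in 9 of the 12 single-array omissions. AT5G22440 (L10a), with 1.29, AT2G20450 (L14), with 1.21, and AT1G07070 (L35a), with 1.15, passed with any single array left out, as did AT3G16780. AT5G67510 (L26) had an interaction of 1.18 ± 0.21 (SE, limma adjusted p = 0.0154) and lost its call only without Col-0 replicate 2 of stage 1.05 (limma adjusted p = 0.0506). The count of 15 members was lowest at 4 without Col-0 replicate 2 of stage 1.05, and 5 without SPH1 RNAi replicate 2 or 3 of stage 1.05. It was 6 without Col-0 replicate 3 of stage 1.05 and 7 without Col-0 replicate 3 of stage 1.14. It was 10 without Col-0 replicate 1 or 2, or SPH1 RNAi replicate 3, of stage 1.14, and 11 to 15 in the other omissions. Over all tested probe sets 446 were called in either direction in the full fit. In the omissions with 4, 5, 5, 6 and 7 members they numbered 119, 131, 169, 159 and 171. The members' median interaction was 0.574 with array quality weights and 1.02 without both repeated hybridisations.

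Averaged over both stages, 11 members rose in SPH1 RNAi, at a background of 6.79% called higher, and the median change was 0.33, or 0.20 with array quality weights. AT5G22440 had the largest average, 0.53 ± 0.11 (SE, limma adjusted p = 0.0137), and was the only one of the 8 largest that passed in every single-array omission. The L13a gene AT3G24830 was the only one of the 8 with a positive change at stage 1.05, where it read 2100.4, 2655.9 and 2244.2 in SPH1 RNAi, against 1775.2, 2208.6 and 1795.6 in Col-0, with overlap. At stage 1.14 it read 1927.3, 1412.5 and 1430.7 in SPH1 RNAi, against 1050.5, 798.7 and 1106.8 in Col-0, without overlap, and its average was 0.48 ± 0.13 (SE, limma adjusted p = 0.0343). The other 6 of the 8, AT1G27400, AT2G44120, AT1G80750, AT2G20450, AT5G67510 and AT1G26880, averaged between 0.44 and 0.49, and each had a change at stage 1.05 between -0.14 and -0.03. The count of 11 was 3 without Col-0 replicate 3 of stage 1.05, 4 without SPH1 RNAi replicate 3 of stage 1.05 and 6 without replicate 2 of that group. It was 7 without Col-0 replicate 1 or 2 of stage 1.05, any Col-0 array of stage 1.14 or SPH1 RNAi replicate 3 of stage 1.14, and 9 to 14 otherwise. It was 25 after quantile normalization and 5 after scaling to a common median. Over all tested probe sets 1311 were called in either direction in the full fit, against 1256 and 1229 with these scalings. In the omissions with 3, 4 and 6 members they numbered 567, 746 and 643.

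Paralogues of a family were then set against each other within each array, as the log2 ratio of their signals, so that the scaling of the array cancels apart from the offset. The level of such a ratio depends on the probes and is not interpreted, only its difference between groups. For 22 pairs in 13 families, the stage difference over both genotypes and the genotype difference over both stages were tested by an exact two-sided permutation test within strata of 400 relabelings, whose smallest possible p is 0.005. None of the 44 tests passed after Benjamini-Hochberg adjustment over all of them, the lowest adjusted p being 0.088, while after quantile normalization 4 stage differences and 1 genotype difference passed. Even with low p-values all at this smallest p, 5 such tests would be needed for any to pass, and with larger p-values more. The count of 0 thus says little. Without adjustment, 9 stage differences and 1 genotype difference had a p under 0.05. The pairs described next were chosen after their values were seen, as those with the lowest p.

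The largest difference was in L19, where the ratio of AT3G16780 over AT4G02230 averaged -1.22 ± 0.21 in SPH1 RNAi at stage 1.14 and -1.83 ± 0.03 in Col-0 at stage 1.14, and -0.63 ± 0.14 in SPH1 RNAi and -0.34 ± 0.07 in Col-0 at stage 1.05 (SD, n = 3 arrays each). The 2 stages did not overlap in either genotype, and the stage difference was -1.04 (exact permutation p = 0.005, adjusted p = 0.088). AT3G16780 averaged lower at the later stage relative to its paralogue in both genotypes. The L14 ratio of AT2G20450 over AT4G27090 had a stage difference of -0.80 (exact permutation p = 0.01, adjusted p = 0.088). Its mean was -2.66 ± 0.38 in SPH1 RNAi and -3.14 ± 0.27 in Col-0 at stage 1.14, and -2.25 ± 0.07 in SPH1 RNAi and -1.94 ± 0.46 in Col-0 at stage 1.05 (SD, n = 3 arrays each). In L10a, the ratio of AT1G08360 over AT5G22440 had a stage difference of 0.65 (exact permutation p = 0.01, adjusted p = 0.088), and that of PGY1 over AT5G22440 one of 0.57 (exact permutation p = 0.015, adjusted p = 0.094). Both share AT5G22440, the L10a gene with the largest stage change, and the ratio of AT1G08360 over PGY1 differed by 0.09 (exact permutation p = 0.135).

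In L7, 3 of the 6 pairs had a p under 0.05 for the stage, and all 3 held AT3G13580, the gene with a stage change of 0.01 in SPH1 RNAi. The ratios of AT2G01250, AT2G44120 and AT1G80750 over AT3G13580 differed by -0.40, -0.48 and -0.51 between the stages, with exact permutation p of 0.01, 0.015 and 0.04. The 1 genotype difference was also in L7, where the ratio of AT2G01250 over AT2G44120 differed by -0.16 between SPH1 RNAi and Col-0 (exact permutation p = 0.03, adjusted p = 0.165). The genotype test averages both stages, so opposite differences cancel in it. The L19 ratio above was higher in SPH1 RNAi at stage 1.14 and lower at stage 1.05, without overlap at either (exact permutation p = 0.35 for genotype). Genotype differences of the ratios at a single stage were not tested. The L26 ratio of AT3G49910 over AT5G67510 had a stage difference of 0.40 (exact permutation p = 0.035). The L30 ratio of AT1G36240 over AT1G77940 had one of 0.64 (exact permutation p = 0.005, adjusted p = 0.088), with AT1G36240 close to the filter on low signal. AT1G77940 read 1683.1, 1495.3 and 1536.1 in SPH1 RNAi and 1171.3, 897 and 1248 in Col-0 at stage 1.14, and 2218.9, 2347.3 and 2144.1 in SPH1 RNAi and 2186.2, 2563.5 and 2420 in Col-0 at stage 1.05, so the stages did not overlap in it. In L4, L7a, L12, L13a, L17, L18a and L37 no pair had a p under 0.05 for either effect.

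**Figure D4:**
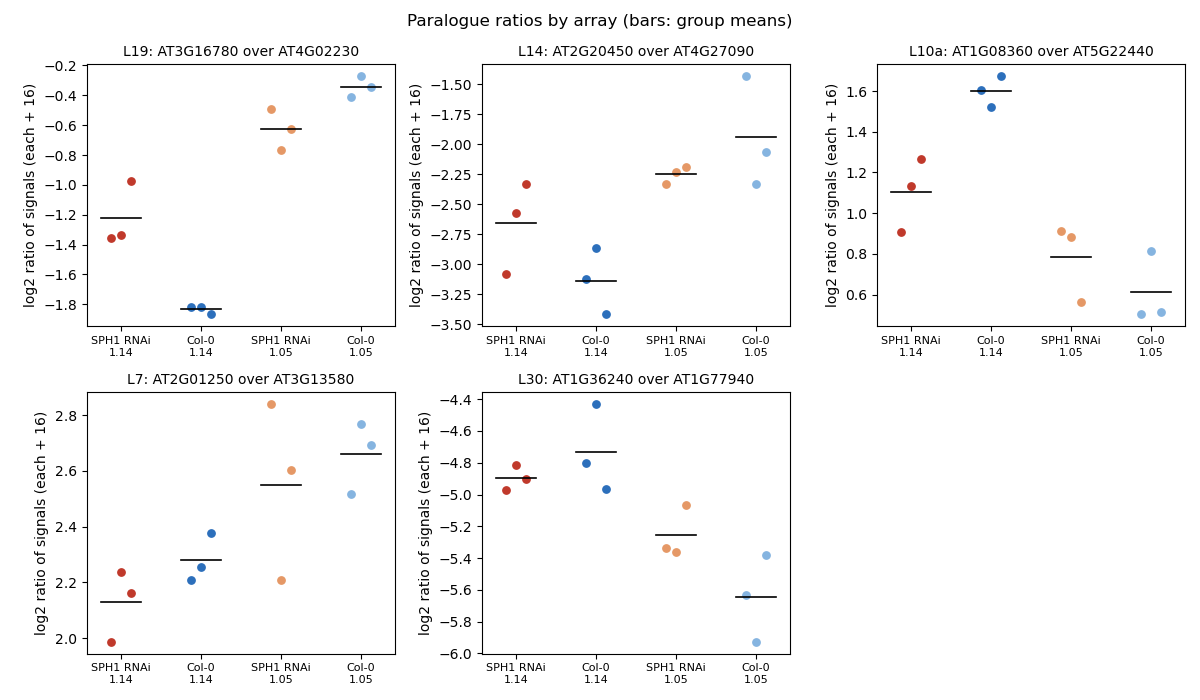
Log2 ratio of the signals (each plus 16) of 2 paralogues in each of the 12 arrays, for the 5 pairs with the lowest permutation p, chosen after the values were seen; points are arrays and bars are group means. In L19 the SPH1 RNAi and Col-0 arrays of stage 1.14 average -1.22 and -1.83 and lie below those of stage 1.05, which average -0.63 and -0.34.

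Other genes of the translation machinery were taken from lists by locus, chosen with earlier results of these data known. At stage 1.14, 30 of 43 tested 40S protein genes of the small subunit rose in SPH1 RNAi, with a median change of 0.72, and 23 of 38 tested 60S genes outside the 60 loci rose, with a median of 0.69. In Col-0, 40 of the 43 and 36 of the 38 fell at stage 1.14, and in SPH1 RNAi 10 and 12 did. The background for these and the following lists was 4.7% of tested probe sets called higher in SPH1 RNAi at stage 1.14. For the stage it was 21% called lower in Col-0 and 4.46% in SPH1 RNAi. Of 9 tested ribosome assembly genes 8 rose at stage 1.14, with a median of 0.97. Among them AT5G14520 (PES), whose product works with BOP1 in maturing the large subunit, read 387.1, 276.1 and 341.5 in SPH1 RNAi, against 132.1, 116.9 and 144.4 in Col-0, a change of 1.25 ± 0.15 (SE, limma adjusted p = 0.00194). BOP1 (AT2G40360) rose by 1.00 (limma adjusted p = 0.00591), and in both genes the genotypes did not overlap. None of 7 tested plastid 50S protein genes encoded in the nucleus passed at stage 1.14 in the limma test, 0 also without adjustment, with a median of -0.10, while all 7 fell at stage 1.14 in Col-0 and 5 did in SPH1 RNAi. Of 2 tested elongation genes 1 rose at stage 1.14, and of 2 tested regulators of growth signalling none passed at that stage between the genotypes in the limma test, 0 also without adjustment.

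Markers of other cell types were largely unmeasured: 1 of 5 root genes, 1 of 11 genes of dividing cells, 1 of 6 mesophyll genes and 1 of 5 meristem and flower genes had a listed probe set. The dividing-cell gene PRL (AT4G02060), a component of the replication helicase, read 104.8, 79.2 and 114.3 in SPH1 RNAi at stage 1.14, against 56.7, 35.5 and 56.3 in Col-0, and rose by 0.82 with the 60S genes (limma adjusted p = 0.0249). At stage 1.05 it read 108.8, 139.8 and 106 in SPH1 RNAi and 164.5, 145.2 and 110.1 in Col-0, where the genotypes overlapped. The root gene PYK10 (AT3G09260) read 355.2, 39.4 and 61.3 in SPH1 RNAi and 21.4, 16.3 and 14.2 in Col-0 at stage 1.14, and 530.6, 288.4 and 382.2 in SPH1 RNAi and 568.4, 339.4 and 468.5 in Col-0 at stage 1.05. Within SPH1 RNAi at stage 1.14, replicate 1 lay in the range of the stage 1.05 arrays, while the other two lay far below it and above all Col-0 arrays of stage 1.14. The mesophyll gene for Rubisco activase (AT2G39730) read 3052.7, 3600.2 and 2857.2 in SPH1 RNAi, against 2797.8, 3714.2 and 3958.2 in Col-0 at stage 1.14, with overlap, and the meristem gene CLV3 lay below the filter on low signal. The part of these cell types in the 60S differences was not tested.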

How the data were processed

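Linear intensity values of 22810 probe sets on 12 ATH1 arrays were used as the authors deposited them. The software that summarised the probes is not named in the sources used here. A trimmed mean (2% at each end) of 100.007 to 100.011 on every array shows a common scaling. After 64 control probe sets were left out, 13263 of 22746 had a mean of at least 32 and were tested on log2(signal + 16) with limma 3.58.1 (lmFit, eBayes with intensity trend) in R 4.3.3, as 1 model with 4 groups, 8 residual degrees of freedom and 6 comparisons. Benjamini-Hochberg adjustment ran over all tested probe sets at a threshold of 0.05. The number of arrays limits the precision.

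Genes were named from the platform's annotation of probe sets: 13513 probe sets have 1 gene and 503 several. For 1 symbol the match pointed to another gene ID, so it was left out. No sequences were used here. The members and lists were chosen with earlier results of these data known. The 8 members with the largest changes per comparison and direction among those that passed were named, with array values for some of them. Other members named were chosen after their values were seen. The fit and the permutation tests (numpy 2.4.6) were tested on simulated data. Alternatives covered the offset, filter, scaling, array weights, replicate block, prior, arrays in the fit and single-array omissions. Replicate numbers were not treated as pairs.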

Additional observations from a re-analysis of the deposited data

Results flagged for a closer look

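In 15 of the 39 members the stage change differed between the genotypes by the interaction test of limma (adjusted p under 0.05), with a smaller decrease at stage 1.14 in SPH1 RNAi than in Col-0 each time. The interactions on the log2 scale, SPH1 RNAi minus Col-0, were 1.46 for AT3G16780 (L19), 1.45 for AT2G37190 (L12), 1.29 for AT5G22440 (L10a), 1.21 for AT2G20450 (L14) and 1.18 for AT5G67510 (L26). They were 1.15 for AT1G07070 (L35a), 1.13 for AT3G14600 (L18a), 1.11 for AT2G47610 (L7a), 1.10 for AT1G80750 (L7) and 1.04 for AT3G07110 (L13a). They were 1.03 for AT1G27400 (L17), 1.02 for AT2G44120 (L7), 0.98 for AT5G27850 (L18), 0.94 for AT1G26880 (L34) and 0.90 for AT1G18540 (L6). Groups of 3 arrays were not tested for single arrays that lie far out.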

How the results depend on the processing

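Of 2366 single-gene values recomputed under alternatives, 1976 kept their call, 390 no longer passed and 0 changed direction. Only values that passed in the full fit were recomputed, so calls gained under an alternative are not counted. Several alternatives, such as the replicate block or the omission of an array outside the comparison, leave the change itself as it was. The count of 0 therefore says little. With a single array left out, members called ranged over 13 to 28 for SPH1 RNAi against Col-0 at stage 1.14 (29 reported), 0 to 1 at stage 1.05 (1), 3 to 14 for the average (11), 36 to 37 for the stage in Col-0 (37), 4 to 21 for the stage in SPH1 RNAi (11), 4 to 15 for the interaction (15) and 0 to 0 for both paralogue tests (0), where the smallest possible p leaves little room to pass. With only the 6 arrays compared the counts were 5 at stage 1.14, 0 at stage 1.05 and 1 for the stage in SPH1 RNAi; those fits have fewer samples. Without a filter they were 18 at stage 1.14 and 5 for the stage in SPH1 RNAi, with 22746 probe sets tested. After quantile normalization they were 25 for the average and 5 for the stage in SPH1 RNAi, and 4 paralogue ratios passed for the stage and 1 for genotype; after median scaling the average had 5; with array weights the stage in SPH1 RNAi had 25. Median scaling moved the median of all tested probe sets at stage 1.05 to -0.07 (0.04 as deposited) and for the stage in Col-0 to -0.08 (0.02), with members' medians of -0.19 and -1.37. Without both repeated hybridisations, which leaves 1 SPH1 RNAi array at stage 1.14 that is assumed to vary like the others, the average had 24 and the stage in SPH1 RNAi 2. Apart from fewer samples or more probe sets tested, the cause was not tested. With the replicate block the counts were 25, 1, 10, 37, 8 and 15 in the order above, a change of no count by over 1.5 times. Deviations of same-numbered arrays correlated between -0.25 and 0.49, over 0.1 in 7 of 18 pairs, and 5 of 12 arrays correlated best with their own number. The average over several probe sets of a gene was not run, since each member had 1.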

Other observations

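Outside the 60 loci, the P2 stalk gene AT3G28500, singled out after its values were seen, was the 1 tested 60S gene that rose in SPH1 RNAi at stage 1.14 relative to stage 1.05. It read 242.4, 145.3 and 207.8 in SPH1 RNAi at stage 1.14 and 78.7, 48.1 and 58.1 in Col-0 at that stage, and 35.6, 44.8 and 46.3 in SPH1 RNAi and 44, 39.2 and 53.2 in Col-0 at stage 1.05. Every SPH1 RNAi array of stage 1.14 lay above every other array. Its stage change in SPH1 RNAi was 1.86 ± 0.19 (SE, limma adjusted p = 0.000168), its change at stage 1.14 relative to Col-0 was 1.46 ± 0.19 (SE, limma adjusted p = 0.00255) and its interaction was 1.53 ± 0.27 (SE, limma adjusted p = 0.0139).

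A probe set that matches both AT1G74060 and AT1G74050, of the L6 family, covers 2 of the 21 loci without a probe set of their own. It read 1141.7, 773.1 and 760.2 in SPH1 RNAi at stage 1.14, against 567.9, 518.6 and 588.8 in Col-0 at that stage, a change of 0.64 ± 0.16 (SE, limma adjusted p = 0.0329). At stage 1.05 it read 1230.9, 1210.1 and 1218.5 in SPH1 RNAi and 1240.2, 1331.7 and 1317.4 in Col-0. The genotypes did not overlap there, by a narrow gap, at a background of 11.7% of tested probe sets lower without overlap. The change of -0.09 ± 0.16 (SE, limma adjusted p = 0.808) did not pass. A second such probe set, matching the L9 genes PGY2 and AT1G33120, read 1309.8, 1213.5 and 918.2 in SPH1 RNAi at stage 1.14, against 835.5, 770.2 and 903.3 in Col-0 (limma adjusted p = 0.116). It did not pass, and the statement above that L9 rose rests on AT4G10450 alone.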
